A study of Homo sapiens with 66 samples.

Results

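The response of cytosolic RNA to CRISPR/Cas9 targeting of hnRNPC was measured in 4 libraries of THP-1, a human monocytic leukemia cell line. They are the 2 hnRNPC-targeted and the 2 CTRL-targeted libraries of the cytosolic fraction, out of 18 libraries of study 2 and 66 in the whole series, and were chosen by their labels alone. All 4 came from a single Cas9-transgenic WT clone, harvested 4 d after nucleofection. CTRL cells received the nontarget gRNA NTC1 alone, and hnRNPC-targeted cells received NTC1 together with the gRNA hnRNPC.1. The edited cells were a bulk population, so alleles that escaped editing stay in the measurement. Cytosolic RNA was the digitonin-soluble part of the cells and was sequenced as rRNA-depleted total RNA. Each group had 2 replicates, which the study describes as independent experiments. For RNA levels, p-values rest on the spread between replicates pooled over the groups of all 18 libraries of study 2, unless another set is named. These groups include total and nuclear RNA, and cells given a gRNA against the editing enzyme ADAR, with or without hnRNPC gRNA. Tests of editing sites and of editing per region pool the cytosolic groups, the ADAR-targeted ones included. Gene counts ranged from 57199878 to 70594601 per library (49666958 to 73873756 over the 18 libraries). Counts in editing-cluster regions (ECRs), the genomic intervals in which A-to-I editing sites lie close together, ranged from 3177845 to 4021432.

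hnRNPC is an abundant nuclear RNA-binding protein that packages nascent transcripts and binds runs of uridine. Such runs arise wherever an Alu element, the most common repeat of the human genome, is transcribed in antisense orientation, because its A-rich tail then reads as U. By occupying them, hnRNPC is known to keep the splicing factor U2AF from using cryptic splice sites within Alu elements. A pair of Alu elements in opposite orientation can fold into double-stranded RNA (dsRNA). ADAR deaminates adenosine to inosine in such duplexes, and unedited duplexes in the cytosol can be sensed by MDA5, which starts the type I IFN response. The question of the comparison is therefore which RNAs, and which editing clusters, changed in the cytosol when hnRNPC was targeted.

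The gRNA and the control spacer are shown because they define the groups. The match of hnRNPC.1 to the reference was unique and fell in the coding sequence of HNRNPC, on chromosome 14 (GRCh37, plus strand), chr14:21702173-21702192, whereas NTC1 had 0 exact matches in the reference. Spacers are in lower case and the PAM beside the target is in capitals.
hnRNPC.1: ctcattaacatactgaacgaAGG
NTC1: cgttaatcgcgtataatacg

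HNRNPC mRNA (ENSG00000092199) was read at 934 and 819 CPM (counts scaled to the TMM-adjusted gene total of the library) in the CTRL libraries and at 450 and 530 CPM in the hnRNPC libraries. The groups did not overlap, and the log2 fold change was -0.84 ± 0.14 (SE, edgeR quasi-likelihood test, adjusted p = 0.0051), which is short of 2-fold. In total RNA of the same clone, the CTRL libraries held 894 and 642 CPM and the hnRNPC libraries 450 and 489 CPM. The cytosolic difference passed the adjusted p in 2 of the 4 fits that left out 1 cytosolic library, with log2 fold changes between -0.96 and -0.72. RALY, the closest relative of hnRNPC, stood at 195 and 199 CPM with CTRL gRNA and at 202 and 204 CPM with hnRNPC gRNA (log2 fold change 0.04, adjusted p = 0.87). ADAR mRNA stood at 1063 and 1094 CPM against 1263 and 1151 CPM (log2 fold change 0.16, adjusted p = 0.66).

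The fraction was checked by RNAs with a known location. The 17 mitochondrially encoded RNAs that were tested had a median log2 difference of -6.14 between CTRL cytosolic and CTRL total RNA, and their summed level was 64.9 to 99.7 CPM over the 4 cytosolic libraries. The mRNAs of ER chaperones and folding enzymes, which are translated at the ER membrane, had a median log2 difference of -1.59 (23 genes). Of 4 nuclear RNAs (without RN7SK), the summed level was 846 and 1077 CPM in CTRL and 1154 and 851 CPM in hnRNPC cytosolic libraries, against 3242 and 2911 CPM in nuclear RNA of hnRNPC-targeted cells. Nuclear RNA was thus still present in the cytosolic fraction. CTRL replicate 2 of total RNA stood apart, with 3614 CPM of these nuclear RNAs against 1421 CPM in replicate 1. Of the monocytic markers, 11 of 14 were tested and ELANE, AZU1, PRTN3, SPI1, CD33 and LYZ were expressed, while CD14 and CD68 were at or below 0.255 CPM. Of 17 markers of T, B, erythroid, epithelial and fibroblast cells, HBA1, HBA2, KRT19, COL1A2 and COL3A1 were at 0 in the 4 libraries. The sum over all 17 was 2.40 and 3.08 CPM in CTRL and 3.43 and 3.64 CPM in hnRNPC libraries, and its part in the results was not tested. In bulk RNA, fewer cells of a type and less RNA per cell cannot be told apart.

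Few genes changed at least 2-fold in the cytosol. Of 57820 genes listed, 13650 passed the filter on low counts; 39 were called higher (0.286% of those tested) and 18 lower (0.132%) with hnRNPC gRNA, where a call needed a 2-fold change and passed the test at an adjusted p of 0.05. By adjusted p alone, 165 genes were higher (1.21%) and 328 were lower (2.40%). The groups did not overlap for any of the 57 called genes, compared with 22.0% of all tested genes that were higher and 24.3% that were lower without overlap. The 39 genes called higher were expressed at low levels, with 33 of them under a mean of 5 CPM, and 12 were lncRNAs, 6 pseudogenes and 20 protein coding (51.3%, compared with 83.9% of all genes tested). All 18 genes called lower were protein coding. A fit on the 4 cytosolic libraries alone called 17 genes, 7 higher and 10 lower. All 57 kept their sign in each fit that left out 1 library, but fewer were called again. Of the 39 called higher, these were 3 without CTRL replicate 1, 24 without CTRL replicate 2, 13 without hnRNPC replicate 1 and 14 without hnRNPC replicate 2. Of the 18 called lower, they were 8, 9, 12 and 6. The balance of directions turned as well, with 3 genes called higher and 10 lower without CTRL replicate 1, and 15 higher and 22 lower without hnRNPC replicate 1.

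Among the genes that fell were metabolic enzymes and a mitophagy receptor. BNIP3, a receptor for the removal of mitochondria, was at 82.6 and 92.2 CPM in CTRL and at 43.1 and 32.1 CPM in hnRNPC libraries (log2 fold change -1.22 ± 0.19, adjusted p = 0.0032). Both hnRNPC libraries thus held less than either CTRL library. PECR, a reductase of the peroxisome, was at 15.5 and 11.6 CPM against 4.53 and 6.34 CPM (log2 fold change -1.32). PRMT3, which methylates arginines of a ribosomal protein, was at 34.4 and 30.5 CPM against 14.1 and 15.9 CPM (log2 fold change -1.12). These 3 genes and CEP44 (-1.14) and TMEM135 (-1.10) kept an adjusted p under the threshold in each of the 4 fits without 1 library. ALDOC, a glycolytic aldolase, had the lowest log2 fold change of the 18, -1.54 ± 0.37, with 17.998 and 19.6 CPM against 8.28 and 4.70 CPM. Its adjusted p was 0.034 and lay between 0.059 and 0.19 when 1 library was left out. CD300A (-1.37), an inhibitory receptor of myeloid cells, DHCR7 (-1.23), CA13 (-1.18), DHRS3 (-1.04) and ETV1 (-1.01) were called as well and passed the adjusted p in at most 2 of these fits.

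Of the genes that rose above 5 CPM, the lncRNA ENSG00000261798 was at 3.09 and 4.65 CPM in CTRL and at 11.5 and 11.2 CPM in hnRNPC libraries (log2 fold change 1.55 ± 0.22, adjusted p = 0.0021). C10orf95-AS1, an antisense lncRNA, was at 3.43 and 4.21 CPM against 9.32 and 10.9 CPM (log2 fold change 1.40). TLCD3B, a membrane protein with a TLC domain, was at 2.44 and 3.84 CPM against 8.73 and 7.54 CPM (log2 fold change 1.38). In each of them both hnRNPC libraries were above both CTRL libraries. LRRC37A3 (1.29) is one of several near-identical copies, between which unique reads can be lost. FLRT1 (1.21), a cell adhesion protein, and C14orf93 (1.02) were the other 2 above 5 CPM. Without 1 library, ENSG00000261798, C10orf95-AS1 and C14orf93 passed the adjusted p in 4 of 4 fits, and TLCD3B, LRRC37A3 and FLRT1 in 2. The strand setting of the counting is not given in the sources used here, so reads of these genes and of overlapping or antisense partners cannot be told apart.

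In libraries outside the contrast, most called genes had values of the same sign. In total RNA, 39 of 39 genes called higher had a positive log2 fold change (median 0.90; 12 were called, compared with 0.212% of all genes, and 23 passed the adjusted p, compared with 2.81%), and 18 of 18 called lower had a negative one (median -1.04; 9 were called, compared with 0.425%, and 16 passed the adjusted p, compared with 4.37%). Total and cytosolic libraries come from the same clone and gRNA. In study 1, total RNA of a STING-deficient clone on day 4 after another hnRNPC gRNA, with 3 replicates and its own controls, 36 of the 39 were tested. All 36 had positive values, and 26 were called higher, compared with 1.52% of the genes tested in both. Of the 18 genes called lower, 9 were called lower there (background 1.48%), with a median log2 fold change of -0.91. In ADAR-targeted cytosolic RNA, hnRNPC gRNA gave higher values without overlap for 38 of the 39 and lower values for 14 of the 18 (background 31.0% in each direction). Of the other 4, PECR and DHCR7 overlapped with lower means, and CD300A and DHRS3 had higher means: CD300A was at 11.2 and 7.79 CPM with ADAR gRNA and at 12.35 and 9.37 CPM with both gRNAs, and DHRS3 at 6.63 and 4.53 against 6.89 and 5.001 CPM.

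Genes of sterol and cholesterol synthesis had mostly lower values with hnRNPC gRNA. Of 24 tested genes of the list, 23 had log2 fold changes below 0, 22 were lower without overlap of the groups (24.3% of all genes), and the median was -0.53, beside a median of 0.00 over all genes. By adjusted p, 6 of the 24 passed as lower (2.40% of all genes), among them DHCR7 and CYP51A1 (-1.11) at 2-fold, and HMGCS1 (-0.84), SQLE (-0.81) and EBP (-0.54). SQLE, which makes the epoxide of squalene, was at 121 and 134 CPM in CTRL and at 76.6 and 68.6 CPM in hnRNPC libraries. HMGCS1, which makes the substrate of HMG-CoA reductase, was at 107 and 105 CPM against 69.3 and 49.3 CPM. Replicate 2 of the hnRNPC libraries was the lower one for both genes. INSIG1 (-0.81, adjusted p = 0.17), a regulator of the sterol-sensing pathway, did not pass. The median was -0.73 without hnRNPC replicate 1 and -0.44 without hnRNPC replicate 2, and 1 to 4 genes passed when 1 library was left out.

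IFN-stimulated genes (ISGs) had mostly higher values with hnRNPC gRNA but did not pass the test on all 18 libraries one by one. Of 51 tested ISGs, 45 had a log2 fold change above 0 (50.3% of all genes), with a median of 0.34. Without overlap, 29 were higher (22.0% of all genes). By edgeR, limma-voom or DESeq2, 0 passed the adjusted p. An unadjusted p under 0.05 was found for 11 by edgeR, beside 18.1% of all genes. MX1 was at 58.5 and 53.04 CPM in CTRL libraries and at 139 and 73.5 CPM in the hnRNPC libraries (log2 fold change 0.93 ± 0.39, adjusted p = 0.22). IFIT1 was at 16.1 and 14.1 CPM against 33.0 and 21.9 CPM (log2 fold change 0.86, adjusted p = 0.23). In both genes, hnRNPC replicate 1 was further from the CTRL libraries than replicate 2. The lowest adjusted p was 0.092, for OASL (6.17 and 5.69 CPM against 13.6 and 9.04 CPM). Without hnRNPC replicate 1 the median was 0.10, and without replicate 2 it was 0.55. The 13 tested genes of dsRNA sensing, among them IFIH1 (MDA5, 0.36) and EIF2AK2 (PKR, 0.59), had a median of 0.27. Of them, 0 passed by any of the 3 tools, and 3 had an unadjusted p under 0.05 by edgeR (18.1% of all genes). With no filter on low counts, 18 ISGs and 4 genes of dsRNA sensing passed the adjusted p.

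Zinc finger genes moved by small amounts. Many proteins of this family bind and repress transposable elements. Of 416 tested genes, 24 were higher and 2 lower by adjusted p (1.21% and 2.40% of all genes). A log2 fold change above 0 was found for 319 (50.3% of all genes), and the median was 0.12. ZNF684 was at 124 and 116 CPM in CTRL and at 198 and 216 CPM in hnRNPC libraries (log2 fold change 0.79 ± 0.09, adjusted p = 0.00031). ZNF695 was at 25.5 and 29.1 CPM against 46.1 and 49.6 CPM (0.81 ± 0.09). ZNF771 was called at 2-fold (1.22) at a level of 1.27 and 2.01 against 3.22 and 4.40 CPM, and ZNF395 was called lower (-1.01). When 1 library was left out, 3 to 10 zinc finger genes passed in the higher direction.

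Of the RNA processing lists, splice site recognition had 2 genes past the adjusted p out of 15 (1.21% of all genes were higher and 2.40% lower). They were HNRNPC itself, the target of the gRNA, and U2AF1L4 (1.14), a relative of the small U2AF subunit, which stood at 0.770 and 0.677 CPM against 1.83 and 1.39 CPM. In the nonsense-mediated decay list, 1 of 20 genes passed in each direction, beside the same shares. GSPT1, the release factor eRF3, fell from 288 and 270 CPM to 158 and 175 CPM (log2 fold change -0.75), and UPF3B rose by 0.39. Of 33 other hnRNP and SR protein genes, 0 passed by edgeR, and the lowest adjusted p was 0.055. An unadjusted p under 0.05 was found for 2, beside 18.1% of all genes.

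The list of 16 genes that the study names one by one was drawn up by its authors, in part on data of this series, and its direction is not independent evidence. Of its genes, 1 passed as higher and 4 as lower (1.21% and 2.40% of all genes). The 4 were MFSD1, a lysosomal transporter (134 and 127 CPM against 65.6 and 76.9 CPM, log2 fold change -0.87), IARS2, a mitochondrial isoleucyl-tRNA synthetase (-0.79), EIF3D, a subunit of translation initiation factor 3 (-0.66), and NUCKS1, a nuclear DNA-binding protein (1317 and 1246 CPM against 807 and 858 CPM, log2 fold change -0.62). RCN3, a calcium-binding protein of the ER, passed as higher (0.96) at 1.23 and 1.59 against 2.96 and 2.504 CPM. The other 11 genes did not pass, among them BRD8 (0.36, adjusted p = 0.10), MIGA1 (0.37, adjusted p = 0.10), PSPH (0.17), TMEM116 (-0.08) and MYB (0.04).

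Most ECRs that changed at least 2-fold were higher. Of 2794 ECRs listed, 2470 were tested; 52 were called higher (2.11%) and 3 lower (0.121%) with hnRNPC gRNA. By adjusted p alone, 126 were higher (5.10%) and 79 lower (3.20%). The 52 had log2 fold changes from 1.01 to 2.48 (median 1.34, a 2.54-fold rise), and in each of them both hnRNPC libraries were above both CTRL libraries (26.9% of all tested ECRs were higher in this way). They had low counts in CTRL libraries, with a median of 1.75 CPM, compared with 6.81 CPM over all tested ECRs. Their median in hnRNPC libraries was 4.56 CPM. The 52 were chosen by a rise over these same CTRL values, and the filter on low counts averaged all 18 libraries. The comparison with all tested ECRs is therefore no test. In 46 of the 52, CTRL replicate 1 was below CTRL replicate 2 (62.0% of all tested ECRs). All 52 kept a positive value in each fit that left out 1 library, but 15 were called again without CTRL replicate 1, 48 without CTRL replicate 2, 28 without hnRNPC replicate 1 and 34 without hnRNPC replicate 2.

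The highest log2 fold change belonged to an ECR in an intron of PPP6C, the catalytic subunit of protein phosphatase 6. It was at 0.222 and 0.914 CPM in CTRL and at 3.81 and 2.46 CPM in hnRNPC libraries (log2 fold change 2.48 ± 0.45, adjusted p = 0.0026). An intronic ECR of BRD8, a bromodomain subunit of a histone acetyltransferase complex, was at 0.829 and 2.00 CPM against 7.18 and 6.68 CPM (2.31 ± 0.36, adjusted p = 0.0010). The CTRL libraries lay well apart for both, and both hnRNPC libraries were above them. TRAF3, an adaptor of antiviral and TNF receptor signaling, held an intronic ECR at 0.355 and 0.677 CPM against 2.27 and 2.33 CPM (2.17 ± 0.39). ZNF808 held one at 0.488 and 0.745 CPM against 2.41 and 3.06 CPM (2.16 ± 0.33), and PSIP1, a chromatin reader, one at 0.474 and 1.35 CPM against 3.12 and 4.16 CPM (2.01 ± 0.38). The groups were separate in all 3. MIGA1, a protein of the outer mitochondrial membrane, held an intronic ECR with more counts, at 3.32 and 3.74 CPM against 14.8 and 11.8 CPM (1.91 ± 0.19, adjusted p = 5.2e-05). TMEM116 held one at 1.30 and 2.05 CPM against 5.82 and 5.93 CPM (1.81 ± 0.29). Another intronic ECR of TMEM116 (chr12:112371321-112374733) had more counts and lower values, at 13.3 and 14.1 CPM against 11.9 and 10.9 CPM. Its log2 fold change was -0.27 and did not pass (adjusted p = 0.22). PSPH, an enzyme of serine synthesis, held one at 2.12 and 2.18 CPM against 5.92 and 5.26 CPM (1.38 ± 0.24). Outside of genes, an ECR near RPS15A (2.06) and one at chr2:92312197-92314267 (2.23) rose. The latter lies near the centromere, where similar copies can take up reads, and its values were 0.444 and 0.322 CPM against 2.29 and 1.34 CPM.

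**Figure D1:**
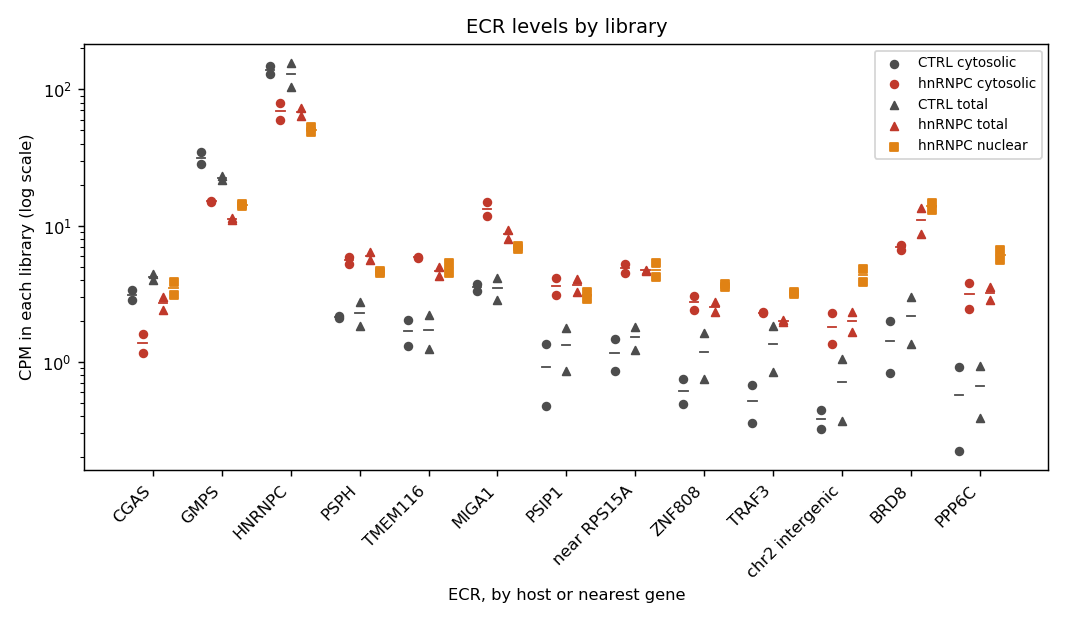
Each symbol is 1 library, by ECR on the x axis and CPM on a log scale on the y axis; short lines are the means of 2 libraries, black marks CTRL and red hnRNPC gRNA in cytosolic (circles) and total RNA (triangles), and orange squares mark nuclear RNA with hnRNPC gRNA. In the 10 ECRs from PSPH to PPP6C both hnRNPC cytosolic libraries lie above both CTRL cytosolic libraries, and in CGAS, GMPS and HNRNPC below them.

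Runs of T in the transcribed strand of these ECRs are shown because a U tract is the known binding site of hnRNPC. Throughout, the transcribed strand means the strand that reads like the RNA, with T for U, and not the template. The longest one of each ECR is given 5' to 3' with the run in capitals and up to 3 flanking bases on each side, as read from GRCh37.
PPP6C, chr9:127937919-127937943, minus strand: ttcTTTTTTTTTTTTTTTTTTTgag
BRD8, chr5:137508355-137508384, minus strand: TTTTTTTTTTTTTTTTTTTTTTTTTTTTTT
Intergenic, chr2:92314231-92314241, minus strand: tccTTTTTcac
TRAF3, chr14:103262193-103262204, plus strand: tggTTTTTTgtc
ZNF808, chr19:53055271-53055291, plus strand: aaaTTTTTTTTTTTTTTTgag
Near RPS15A, chr16:18785741-18785766, minus strand: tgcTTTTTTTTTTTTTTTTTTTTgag
PSIP1, chr9:15498499-15498517, minus strand: agaTTTTTTTTTTTTTcca
MIGA1, chr1:78257242-78257270, plus strand: aagTTTTTTTTTTTTTTTTTTTTTTTaaa
TMEM116, chr12:112440195-112440222, minus strand: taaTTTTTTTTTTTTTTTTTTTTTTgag
PSPH, chr7:56109909-56109933, minus strand: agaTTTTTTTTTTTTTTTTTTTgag
In 7 of these 10 the run was 15 bases or longer. TMEM116 and PSPH are among the 10 because the study names them. The longest run had a median of 16 T over the ECRs called higher, and of 13 T over all tested ECRs with a listed editing site. TRAF3 and the intergenic ECR had no run above 6 and 5 T. Of the 3 ECRs called lower, the longest run had 13 T in HNRNPC, 11 in CGAS and 10 in GMPS.

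Tracts of at least 9 T on the transcribed strand (TTTTTTTTT, that strand only, a run counted once) were found in 43 of the 52 ECRs called higher (82.7%), compared with 72.1% of the 2301 ECRs not called and 72.3% of all 2356 tested ECRs with a listed editing site. At least 2 tracts were found in 53.8% of those called higher and in 37.9% of those not called. Per kilobase, the called ECRs held 0.686 T tracts and the others 0.489. For runs of A on the same strand, which the Alu sense strand carries, the values were 0.343 and 0.426 per kilobase. Within introns, 34 of 37 called ECRs (91.9%) had a T tract, compared with 73.2% of 1389 not called. Median lengths were 2198 and 2381 bases. These shares are a description of sequence, and an ECR without such a tract may hold shorter runs.

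Most ECRs called higher lay in introns: 37 of 52 (71.2%), compared with 57.8% of all tested ECRs, followed by 12 between genes, 2 in exons and 1 in a 3' UTR (MRPS23, 1.01). In 3' UTRs lay 21.1% of all tested ECRs. The host genes had smaller values than the ECRs. The ECRs were chosen by their own rise and the hosts were not, so this comparison is no test. For the 37 called ECRs with a tested host gene, the median log2 fold change of the host was 0.09 (range -0.35 to 0.79), beside a median of 1.40 for the ECRs themselves, and 34 hosts lay within 0.5 of 0. By adjusted p, 3 hosts were higher, ZNF684 (0.79), RCC1 (0.59) and CASP8AP2 (0.42), and 0 were lower (1.21% and 2.40% of all genes). At 2-fold, 0 hosts were called by edgeR. An unadjusted p under 0.05 was found for 15 of the 37 (40.5%), compared with 18.1% of all genes. Zinc finger genes were the hosts of 9 of the 37 (24.3%), compared with 6.81% of the 1938 tested ECRs with a tested host.

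Of the ECRs, 3 were called lower, all without overlap of the groups (24.6% of all tested ECRs). One was in a 3' UTR of GMPS, the enzyme of GMP synthesis, at 34.6 and 28.4 CPM in CTRL and at 15.1 and 15.02 CPM in hnRNPC libraries (log2 fold change -1.07 ± 0.11), and GMPS mRNA was lower as well (-0.66, adjusted p = 0.00073). Another was in an intron of HNRNPC (chr14:21699605-21702155), beside the target of the gRNA, at 148 and 130 CPM against 59.9 and 78.8 CPM (-1.003 ± 0.17). The third was in an intron of CGAS, the cytosolic DNA sensor, at 3.36 and 2.86 CPM against 1.17 and 1.60 CPM (-1.16 ± 0.23), over a host gene at -0.01. In ADAR-targeted cells all 3 were lower without overlap (31.8% of all tested ECRs). In total RNA, GMPS alone was called lower (0.810%), HNRNPC passed the adjusted p (5.30%) at -0.91, and CGAS was at -0.64 (adjusted p = 0.070). In study 1, GMPS (-1.84) and HNRNPC (-1.29) were called lower (1.20%). Of the other ECRs in genes that the study names, that of EIF3D (-0.64) passed as lower and that of MYB as higher (0.39, adjusted p = 0.033). NUCKS1 holds 5 ECRs, of which 1 passed as lower (chr1:205695189-205697271, -0.59), while the other 4 were at -0.07, 0.37, 0.27 and 0.55 and did not pass (adjusted p from 0.33 to 0.92). RCN3 (1.39, adjusted p = 0.096) and OSTC (0.75, adjusted p = 0.12) did not pass. Nor did the ECRs of PNPLA3, at -0.63, -0.83 and -0.61 (adjusted p from 0.14 to 0.28).

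Libraries outside the contrast gave the same direction for nearly all ECRs called higher. In total RNA, 51 of 52 were positive with a median of 0.92, and 22 were called, compared with 1.30% of all tested ECRs, while 29 passed the adjusted p (4.13%). In study 1 on day 4, 46 of the 52 were tested, all 46 were positive (median 1.62), and 43 were called higher, compared with 5.80% of the ECRs tested in both. All 2794 ECRs of study 2 are also listed among the 2875 of study 1. In ADAR-targeted cytosolic RNA, 51 of 52 were higher without overlap when hnRNPC was targeted as well, compared with 29.3% of all tested ECRs. The PPP6C ECR, for example, was at 0.133 and 0.177 CPM with ADAR gRNA and at 1.73 and 1.75 CPM with ADAR and hnRNPC gRNAs.

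The response in the cytosol was compared with that of total RNA by a test of the difference itself. Of the 52 ECRs, 43 had a larger log2 fold change in cytosolic than in total RNA, but they were chosen by their cytosolic values and this count is no test. No difference passed the threshold: 0 of 2470 ECRs (0%; 115 at an unadjusted p under 0.05, 4.66%; lowest adjusted p 0.93) and 0 of 13650 genes (0%; 450, 3.30%; lowest adjusted p 0.51), by edgeR, limma-voom or DESeq2. The median SE of such a difference was 0.25 for ECRs and 0.19 for genes on the log2 scale, which limits what could be seen. TRAF3 was at 2.17 in cytosolic and 0.58 in total RNA (difference 1.58, unadjusted p = 0.0088), and PPP6C at 2.48 and 2.30. The result depended on CTRL total RNA: without its replicate 1, 57 ECRs and 262 genes were called, 57 and 256 of them with the higher response in cytosolic RNA, and without its replicate 2, 0 and 0. Replicate 2 is the library with more nuclear RNA, whose part in the result was not tested.

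**Figure D2:**
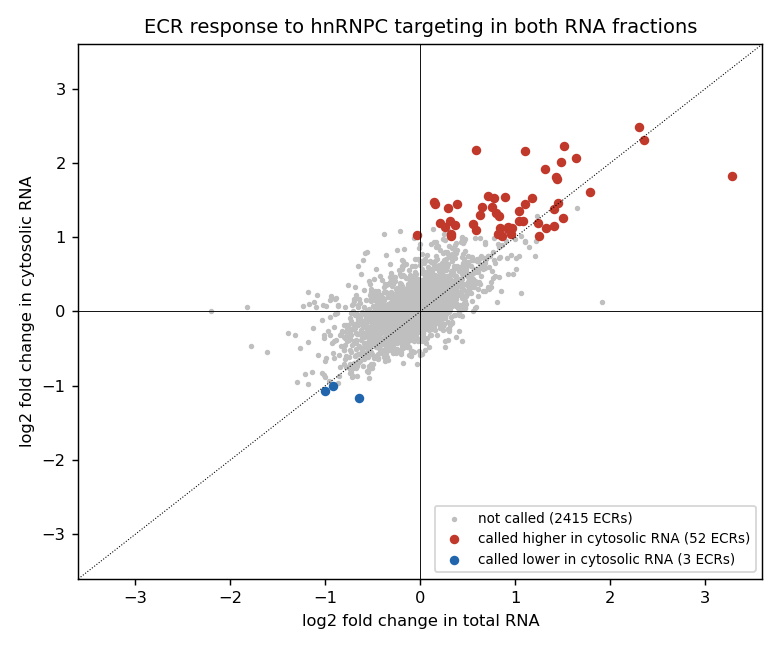
Each point is a tested ECR, with its log2 fold change for hnRNPC against CTRL gRNA in total RNA on the x axis and in cytosolic RNA on the y axis; the dotted line marks equal values. Of the 52 ECRs called higher in cytosolic RNA, 43 lie above the line and 51 lie to the right of 0.

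In hnRNPC-targeted cells, cytosolic and nuclear RNA were set side by side. Of the 52 ECRs called higher, 35 had the higher CPM in nuclear RNA, with a median log2 difference of -0.26 between cytosolic and nuclear RNA, compared with -0.36 over all tested ECRs. By the fit, 10 of the 52 were called lower in cytosolic than in nuclear RNA, compared with 677 of all 2470 (27.4%), and 2 were called higher. The 52 were chosen by their high values in the same hnRNPC cytosolic libraries, so neither comparison with all ECRs is a test. The BRD8 ECR was at 14.6 and 13.1 CPM in nuclear and at 7.18 and 6.68 CPM in cytosolic RNA, while the MIGA1 ECR was at 6.72 and 7.13 CPM in nuclear and at 14.8 and 11.8 CPM in cytosolic RNA. The series holds no library of nuclear RNA from CTRL cells, so a shift between nuclear and cytosolic RNA could not be tested. The summed level of the nuclear RNAs overlapped between the cytosolic groups.

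Editing as a whole was nearly the same in both groups. Over 87178 editing sites within ECRs that had at least 10 reads in each of the 4 libraries, 8.995% and 9.028% of reads carried the edited base in CTRL libraries and 9.23% and 9.07% in hnRNPC libraries. The difference of 0.137 percentage points had a two-sided exact permutation p of 0.333, the smallest that 2 against 2 libraries allow, so that p under 0.05 could not be reached. Both hnRNPC values were above both CTRL values. For comparison, ADAR-targeted cytosolic libraries were at 2.60% and 2.495%, and those with both gRNAs at 2.77% and 2.51%. In the 24928 sites that met the study's read-count and editing thresholds in a group of study 2, editing was 21.8% and 21.9% against 22.0% and 22.1%. The study's last step, which kept only sites in clusters, was not applied here. For sites within the 52 ECRs called higher, it was 6.46% and 5.89% against 6.08% and 5.97%.

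Per ECR, 0 of 1618 (0%) differed by at least 5 percentage points at an adjusted p of at most 0.05 (edgeR quasi-likelihood test on edited and unedited reads). An unadjusted p under 0.05 was found for 112 (6.92%), 89 of them higher and 23 lower with hnRNPC gRNA, and the lowest adjusted p was 0.094. In 97.8% of ECRs the groups differed by less than 5 points. The ECR with the lowest p was in a 3' UTR of KIAA1958, at 0.773% and 2.00% in CTRL and at 4.34% and 4.35% in hnRNPC libraries. Of the 52 ECRs called higher, 27 had enough reads. Their median editing was 5.47% with CTRL and 5.13% with hnRNPC gRNA; 15 were higher, 12 lower, and 0 passed (lowest adjusted p 0.26). The MIGA1 ECR was edited at 6.98% and 9.11% in CTRL and at 7.54% and 6.26% in hnRNPC libraries, so that the groups overlapped, over 544 and 571 reads at its sites in CTRL and 2003 and 2268 in hnRNPC libraries. An edited A in that ECR at chr1:78255069 lies within a T run, in the window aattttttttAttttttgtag (plus strand, the edited base in capitals). It was edited in 16.7% and 31.2% of 18 and 16 reads in CTRL and in 15% and 8.11% of 60 and 74 reads in hnRNPC libraries, a difference that did not pass at this depth.

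**Figure D3:**
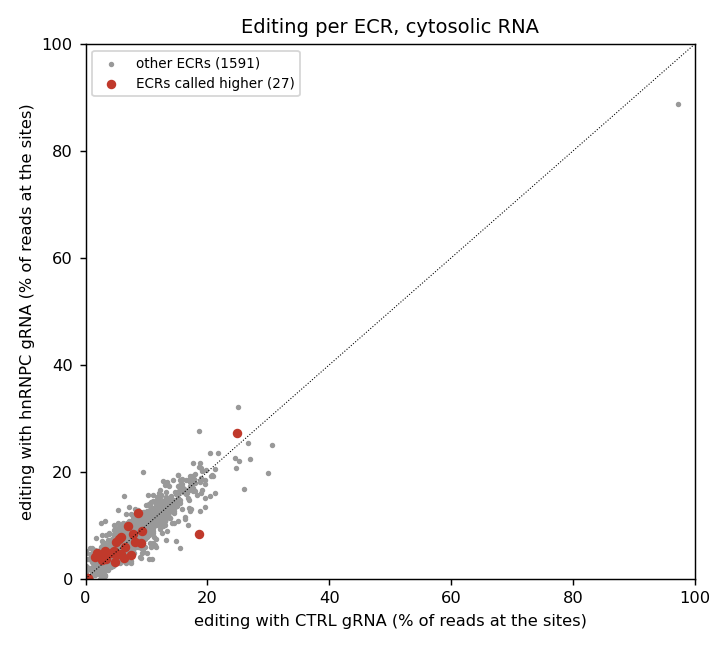
Each point is an ECR with enough reads, with its editing in CTRL libraries (% of reads at its sites) on the x axis and in hnRNPC libraries on the y axis; the dotted line marks equal values. The points follow the line, and the 27 ECRs called higher (red) lie on both sides of it.

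Of 131597 single sites tested, 2 were called higher (0.00152%) and 1 lower (0.000760%) at a difference of at least 10 percentage points, and 1931 had an unadjusted p under 0.05 (1.47%). Their windows of 21 bases are shown on the transcribed strand with the edited A in capitals.
ZNF124 3' UTR, chr1:247318974, minus strand: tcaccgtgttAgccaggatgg
APAF1 3' UTR, chr12:99128792, plus strand: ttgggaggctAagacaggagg
Intergenic, chr15:32850842, minus strand: gaagtgcagtAgcacgatctc
The site in ZNF124, a zinc finger gene, was edited at 34.2% and 32.7% in CTRL and at 55.9% and 57.4% in hnRNPC libraries, over 225 to 284 reads (adjusted p = 2.0e-07). That in APAF1, the core of the apoptosome, was edited at 18.6% and 16.02% against 26.6% and 30.7%. The site on chromosome 15 fell from 52.3% and 60.7% to 33.3% and 22.3%. Both groups were separate at all 3 sites. The site in ZNF124 was called in 9 of 9 alternatives, with differences of 22.5 to 24.01 points, while that in APAF1 was called in 3 of 9 and that on chromosome 15 in 4 of 9. ADAR is known to edit less at an A that follows a G. Among 30283 sites that met the study's read-count and editing thresholds, a G lay 5' of the edited base in 5.16% (13.0% of all tested sites). A G lay 3' of it in 41.2% (36.9%).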

How the data were processed

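RNA sequencing data of 4 cytosolic libraries were analysed, with the other 14 libraries of study 2 in the same fits. The authors aligned reads to GRCh37 with STAR 2.5.4a and deposited raw counts: unique reads per GENCODE gene and reads per ECR (both featureCounts), and edited and total read counts per editing site found with SAILOR, after removal of SNPs of a related clone. The strand setting of the gene counting is not given in the sources used here. Replicates were deposited separately, and no column was without a sample. Replicates differed by more than sampling noise (chi-square per gene 19.7 for CTRL and 38.3 for hnRNPC).

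From these counts, edgeR 4.0.16 (R 4.3.3) was run with the quasi-likelihood test on all 18 libraries with group means, with TMM-scaled gene totals as library sizes for genes and ECRs. The study's own fit was limma-voom, which was run as an alternative (limma 3.58.1), as was DESeq2 1.42.0. Genes had to reach an average log2 CPM of 0.5, and ECRs 4.5 relative to ECR totals. Calls needed an absolute log2 fold change of 1 and a Benjamini-Hochberg adjusted p of at most 0.05. SE was the log2 fold change over the square root of F. Editing was tested in the 8 cytosolic libraries on edited and unedited counts, for sites with 10 reads in each of the 4 libraries and ECRs with 50 reads, with calls at 10 and 5 percentage points. Sites with editing below and from 5% were fitted apart and adjusted together, a change from the planned single fit made after it recovered few changes on simulated data. Sites with an empty value in a cytosolic library (7750 of 318767 listed) were left out. The tests of genes in cytosolic RNA, of editing sites and of editing per ECR were tried on simulated data. Those of ECR levels and of the difference between cytosolic and total RNA were not.

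Genes were named where the mean was at least 5 CPM and the groups did not overlap, up to 12 in each direction, with up to 4 called members of each list, HNRNPC, RALY, ADAR and the genes the study names. ECRs were the 8 highest and the 3 called lower, with ECRs of these named genes. Other genes (list members that passed or are central to a list, host genes) were chosen after their values were seen. Members and lists were chosen with earlier results of these data known. Annotation was GENCODE v44 lifted to GRCh37, more recent than the study's. Alternatives were other tools, filters, library sizes and library sets, the replicate block and the removal of each library. Intervals of editing levels are not given, and tests cover counting error and the spread between libraries. The tested genes of the Y chromosome and XIST are counted but not listed. Some items are not reported here.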

Additional observations from a re-analysis of the deposited data

How the results depend on the processing

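The 57 called genes were 61 by limma-voom and 75 by DESeq2, and 211 (162 higher, 49 lower) with no filter on low counts. A fit on the 4 cytosolic libraries alone called 17, of which 41.2% were higher, compared with 68.4% of the 57. The 55 called ECRs were 56 by limma-voom, 60 by DESeq2, 69 with no filter, 55 with the 4 libraries alone and 57 with ECR totals as library sizes. When 1 library was left out, the count was 13 to 65 for genes and 17 to 83 for ECRs, lowest without CTRL replicate 1 for both (genes: 3 higher and 10 lower; without hnRNPC replicate 1, 15 and 22). The lone library of a group was then assumed to vary like the other groups. For the difference between cytosolic and total RNA, 164 genes were called with no filter, and 0 to 262 genes and 0 to 57 ECRs without 1 library. Called editing sites were 3, and 1 with the 4 libraries alone, with 1 to 3 when a library was left out. Called ECRs for editing, which also needed a difference of 5 percentage points, were 0 in every alternative run. With a replicate block, the lowest adjusted p of the edgeR test was 0.0498, so adjusted p alone was passed there at a smaller difference. The difference in overall editing was 0.056 to 0.219 points without 1 library and 0.131 to 0.309 in the other alternatives, 2 of which, on filtered sites, were chosen after seeing the data, as were those for sites and ECRs. Named genes and ECRs changed sign past the threshold in 0 cases. The causes were not tested. Replicate numbers were not taken to pair the libraries, since there are 2 pairs and the labels name no shared day (correlation of deviations 0.26 between these groups, and 0.17 to 0.39 over the pairs of the 4 cytosolic groups). With a replicate block, 70 genes, 55 ECRs and 1 editing site were called, 0 ECRs for editing, and 0 genes and 0 ECRs for the difference between fractions. Of the named results, 2 passed with the block that had not passed, the BRD8 gene (0.36) and a PNPLA3 ECR (-0.88), and 6 ISGs and 17 genes of cholesterol synthesis passed. Depth limits the low ECRs and most editing sites: of 318767 sites, 131597 had enough reads.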

Other observations

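Further gene lists moved by small amounts. Over all genes, 50.3% had a log2 fold change above 0, and 18.1% had an unadjusted p under 0.05 in either direction. Of 76 tested ribosomal protein genes, 71 had a log2 fold change below 0 (median -0.13), and 0 passed the adjusted p (2 at an unadjusted p under 0.05). The 17 mitochondrially encoded RNAs had a median of 0.32, with 15 above 0 and 0 passing (0 at an unadjusted p under 0.05), and their summed level overlapped between the groups. Over all genes, 1.21% passed as higher and 2.40% as lower, beside which the next counts stand. Of 34 histone genes, 28 were below 0 and 1 passed as lower. Of 19 snoRNA host genes, 16 were above 0, and SNHG7 (0.40) passed. In the list of p53 targets and arrest genes, 1 of 21 passed, FAS, a death receptor, at 2.06 and 1.73 CPM in CTRL and 3.89 and 3.18 CPM in hnRNPC libraries (log2 fold change 0.90). In the list of ATF4 targets, 1 of 21 passed, NUPR1 (0.79). Of the genes for IFNs and inflammatory cytokines, 6 of 25 were expressed enough to be tested, and 0 passed (0 at an unadjusted p under 0.05).

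The remaining lists had 0 or few genes past the adjusted p: 1 of 14 eIF3 subunits, 1 of 32 tRNA synthetases, 2 of 74 mitochondrial ribosomal proteins, 1 of 23 ER chaperones, 1 of 38 replication and mitosis genes and 1 of 11 monocytic markers, all lower (2.40% of all genes). In the lists of mRNA export and exosome factors, dsRNA-binding and editing factors, proteasome subunits, nuclear-encoded respiratory chain subunits, antigen presentation, myeloid transcription factors, abundant cytosolic mRNAs and nuclear RNAs, 0 passed by edgeR.

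Values of 2 further ECRs follow. An ECR in an intron of KCNAB2, with many more counts than most, was at 14.2 and 23.5 CPM in CTRL and at 58.8 and 44.1 CPM in hnRNPC libraries (log2 fold change 1.45). In total RNA it was at 18.8 and 50.6 CPM in CTRL and at 43.7 and 33.3 CPM in hnRNPC libraries (0.15, adjusted p = 0.81), the highest of them being CTRL replicate 2, the library that stood apart. In total RNA of study 1 it was called higher (1.51). An ECR in an intergenic region at chr2:92312197-92314267 did not separate the groups in ADAR-targeted cells, at 0.427 and 0.225 CPM with ADAR gRNA and at 0.304 and 0.678 CPM with both gRNAs. In CTRL cells, the 52 ECRs called higher had a median log2 difference of -0.54 between cytosolic and total RNA (-0.19 over all tested ECRs), and in hnRNPC-targeted cells of -0.03 (-0.15 over all). The 52 were chosen by their values in the same cytosolic libraries, so these medians are no test of a shift between fractions.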
